A study of Homo sapiens with 5 samples.

Results

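The genes described here encode the chains of the fibril-forming collagens and SPARC, a glycoprotein that binds them. The 9 members were taken by symbol (COL1A1, COL1A2, COL2A1, COL3A1, COL5A1, COL5A2, COL11A1, COL27A1 and SPARC), and all 9 were found among the 28278 genes of the count table. They were measured by RNA-seq in HEK293T, an established line derived from human embryonic kidney that carries the SV40 large T antigen. The 3 control libraries are labelled wild type (WT), and the 2 others carry ascorbic acid treatment (vitamin C) in that same label, with no dose. Treatment followed 24 h of seeding and lasted 24 h for a DNA methylation test or 36 h for an RNA methylation test, with fresh medium every 6 h. Which duration belongs to these libraries is not given. All groups were the same line, so the libraries speak for 1 line, and nothing in the labels says that they came from separate cultures. The p-values are therefore relative to a library-to-library spread that could be purely technical.

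Collagen chains are built from repeats of glycine and 2 further residues, and 3 chains wind into a rope-like helix that is secreted and assembled into fibrils. Prolines in the last place of a repeat are hydroxylated in the endoplasmic reticulum by prolyl 4-hydroxylases, enzymes that depend on iron, 2-oxoglutarate and ascorbate, and without that change the helix is not stable at body temperature. Fibroblasts, osteoblasts and chondrocytes are the usual makers of fibrillar collagen; an epithelial-like kidney line is not known for it. SPARC, also called osteonectin, binds the collagen helix and affects fibril assembly.

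The repeat is visible in the coding sequence, and the chains that carry the results are shown from the first codon of their longest unbroken run of repeats. Capitals mark the glycine codon (GGN) that opens each repeat, at every 3rd codon. A glycine codon elsewhere in a repeat, as in COL5A2 and COL5A1, is left in lower case. Each excerpt holds 90 coding bases from a GENCODE release 29 transcript on GRCh38 and runs across introns.
COL3A1, chr2:188987113-188988598, plus strand: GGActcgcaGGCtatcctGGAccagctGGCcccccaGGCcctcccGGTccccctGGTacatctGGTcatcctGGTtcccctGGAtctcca
COL5A2, chr2:189085737-189088703, minus strand: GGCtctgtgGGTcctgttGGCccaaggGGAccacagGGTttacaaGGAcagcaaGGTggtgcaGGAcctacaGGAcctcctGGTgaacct
COL1A1, chr17:50197967-50198441, minus strand: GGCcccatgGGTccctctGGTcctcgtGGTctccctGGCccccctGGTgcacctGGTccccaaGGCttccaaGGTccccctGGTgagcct
COL5A1, chr9:134752601-134753894, plus strand: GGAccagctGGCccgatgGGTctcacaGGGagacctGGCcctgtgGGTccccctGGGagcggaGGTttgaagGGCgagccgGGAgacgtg
The run went on for 343 repeats in COL3A1, 339 in COL5A2, COL1A2 and COL2A1, and 338 in COL1A1, COL5A1 and COL11A1. COL27A1 had a shorter run of 217 repeats. A codon that starts with CC (CCN, proline) stood in the last place of 41.7% of the repeats of COL3A1, against 34.6% in COL1A1, 34.5% in COL5A2, 34.6% in COL5A1 and 27.7% in COL1A2. SPARC, which is no collagen, had at most 2 in a row. Although the repeat is shared, the chains differ in their letters: no window of 50 bases from COL3A1, COL5A2, COL5A1 or COL2A1 transcripts occurred in a transcript of another gene. For COL1A1 this held for all but 22 of 10139 windows and for COL27A1 all but 24 of 14113. SPARC shared 5.84% of its windows with CLMAT3, a transcript on the opposite strand that had 0 to 2 counts in each library.

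Total counts per library ran from 35106664 to 57212071. In each library 71.3 to 75.9% of the counts from 1 to 10 were even, so the number of fragments behind a value may be below its count. Of 15271 genes tested with edgeR's quasi-likelihood test, 8.53% rose and 5.76% fell at an adjusted p of 0.05. Scaled by library totals, 1712 genes rose and 389 fell, against 1303 and 879 here. The number that rose depended on the libraries: 1303 genes rose in all, and 845, 790 and 837 without control replicate 1, ascorbic acid replicate 1 and ascorbic acid replicate 2. The 8 markers listed for HEK293 cells varied widely in level. SALL2, a zinc finger factor, had 81.3 ± 2.17 CPM (counts scaled to library size, as edgeR's cpm gives them) in controls (SD, n = 3). UCHL1, a neuronal ubiquitin hydrolase, was the highest at 188 ± 1.75 CPM. The lowest control means were 0.243 CPM for LHX1 and 0.624 CPM for the kidney factor PAX2.

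Of the 9 members 7 were expressed enough to be tested. After ascorbic acid 5 of them rose (COL3A1, COL5A2, SPARC, COL1A1 and COL5A1), none fell and 2 did not pass (COL2A1 and COL27A1). The median log2 fold change over the 7 tested members was 0.67, beside 0.003 over all tested genes. In 6 of the 7 both treated libraries lay above every control, which was so for 22.6% of all tested genes, while 20.4% had both treated libraries below every control. None of the members did. Members entered the test only if expressed, and they were chosen with earlier results in view, so these counts describe the members and are no separate evidence. Control levels of the members that rose were 3.62 to 31.7 CPM. Among all genes with 1 to 5 CPM in controls 14.8% rose, among those with 5 to 10 CPM 15.0%, and among those with 10 to 50 CPM 9.16%. These are bulk libraries, in which more expressing cells and more RNA per cell cannot be told apart.

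**Figure D1:**
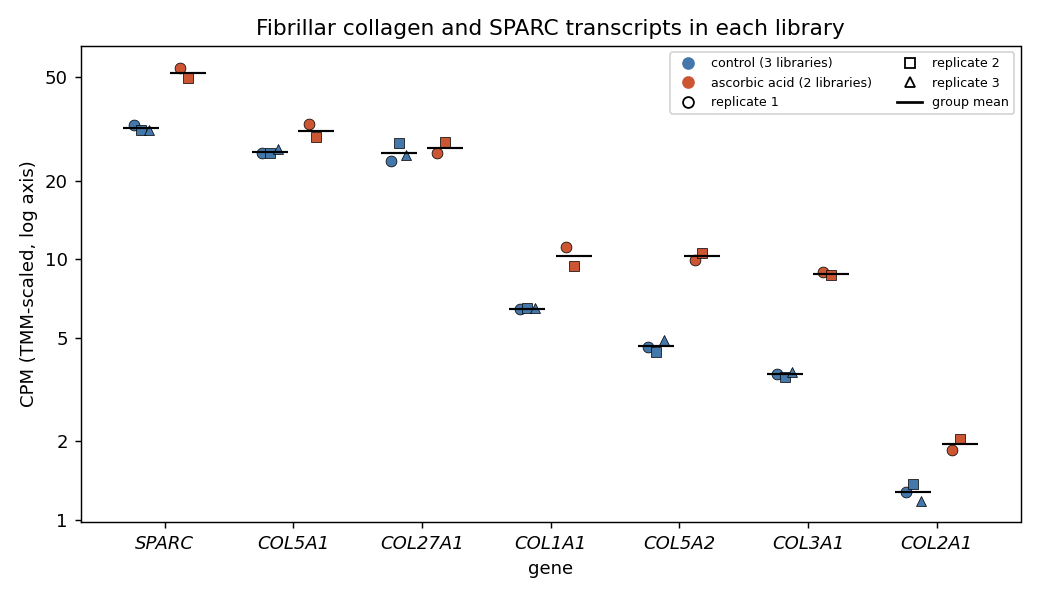
Each point is the level of a gene in 1 library, in TMM-scaled CPM on a log axis, for 3 control and 2 ascorbic acid libraries; horizontal lines are group means. Treated points stand above all control points for every gene shown except COL27A1, where the groups overlap and all values lie between 23.7 and 28.1 CPM.

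COL3A1 and COL5A2 had the largest increases among the members. COL3A1 encodes the only chain of type III collagen, the fine fibrils of skin, vessel walls and soft organs. It lies on chromosome 2 (188974320 to 189012746, GRCh38, plus strand). It had 3.62, 3.53 and 3.70 CPM in control replicates 1 to 3 and 8.88 and 8.72 CPM in the ascorbic acid replicates. The groups were far apart and each was tight. The log2 fold change was 1.28 ± 0.12 (SE), a 2.43-fold increase, with an edgeR adjusted p of 1.35e-08. Only 13 of 15271 tested genes had a smaller p.

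COL5A2 encodes a chain of type V collagen, which sits inside type I fibrils and limits their width. It lies next to COL3A1 on chromosome 2 (189031896 to 189225312, minus strand). It had 4.62, 4.39 and 4.88 CPM in the controls and 9.92 and 10.6 CPM after ascorbic acid. Both treated libraries were above every control by a wide margin. Its log2 fold change was 1.15 ± 0.11, or 2.21-fold (edgeR adjusted p = 3.30e-08). COL3A1 and COL5A2 thus rose by 2-fold or more, as did 1.19% of all tested genes, and with SPARC and COL1A1 4 members rose by 1.5-fold or more, as did 3.16% of all tested genes.

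COL1A1 encodes the major chain of type I collagen, the bulk of bone, tendon and skin. On chromosome 17 (50183289 to 50201632, minus strand), it had 6.41, 6.47 and 6.47 CPM in the controls and 11.1 and 9.45 CPM after ascorbic acid. The controls were nearly equal and the treated libraries differed more from each other. Its log2 fold change was 0.67 ± 0.11, or 1.59-fold (edgeR adjusted p = 7.30e-05). The partner chain COL1A2 (chromosome 7, 94394561 to 94431232) was almost undetected. Control replicate 3 had 1 count and the other 4 libraries had 0. In the least deep library, 3 counts correspond to 0.0867 CPM, and every library was below 3 counts. A level well below that size cannot be told from none. Type I collagen is usually a trimer of both chains. Here only the COL1A1 transcript was above 3 counts in any library.

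COL5A1 (chromosome 9, 134641774 to 134844843, plus strand), the other main chain of type V collagen, rose the least of the called members. Its levels were 25.5, 25.4 and 26.5 CPM in the controls and 32.9 and 29.4 CPM after ascorbic acid. The groups did not overlap, and the treated libraries differed more from each other than the controls did. The log2 fold change was 0.27 ± 0.07, or 1.21-fold (edgeR adjusted p = 0.00882). The call ended without ascorbic acid replicate 1 (0.19, adjusted p = 0.162), and it was not made when the change was tested against a fold of 1.2 (adjusted p = 1).

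The chains of type V collagen therefore moved by unequal amounts. The log2 ratio of COL5A2 to COL5A1 CPM was -2.47, -2.53 and -2.44 in the controls and -1.73 and -1.47 after ascorbic acid, a difference of 0.88. The ratio was higher in both treated libraries than in any control. The log2 ratio of COL3A1 to its neighbour COL5A2 was -0.35, -0.32 and -0.40 against -0.16 and -0.28, a difference of 0.14. That of COL3A1 to COL1A1 was -0.82, -0.88 and -0.81 against -0.32 and -0.12, a difference of 0.62. For each of these 3 ratios the two-sided exact permutation test gave p = 0.2 (adjusted p = 0.2), the smallest value that 3 libraries against 2 allow, so it could not pass.

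SPARC (chromosome 5, 151661096 to 151687165, minus strand) was the most abundant member. It had 32.6, 31.2 and 31.4 CPM in the controls and 54.3 and 49.5 CPM in the treated libraries. All treated values exceeded the controls by more than the spread within either group. Its log2 fold change was 0.71 ± 0.06, or 1.63-fold (edgeR adjusted p = 4.09e-09), with only 9 genes at a smaller p. The antisense transcript CLMAT3, which overlaps 7.89% of the exon length of SPARC, had 2 counts in control replicate 1, 2 in ascorbic acid replicate 2 and 0 elsewhere.

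COL2A1, COL27A1 and COL11A1 encode collagens known from cartilage. COL2A1 (chromosome 12, 47972965 to 48004554) had 1.28, 1.37 and 1.18 CPM in the controls and 1.86 and 2.03 CPM after ascorbic acid. Both treated libraries were higher than every control, at 41 to 90 counts per library. The log2 fold change was 0.60 ± 0.22 (95% interval 0.15 to 1.05) with an edgeR adjusted p of 0.0643, which did not pass. It passed when libraries were scaled by their totals alone (0.64, adjusted p = 0.0499). COL27A1 (chromosome 9, 114155560 to 114312511), which forms thin fibrils, had 23.7, 27.9 and 24.98 CPM against 25.4 and 28.1 CPM. The groups overlapped, and the log2 fold change was 0.07 ± 0.08 (95% interval -0.09 to 0.23, edgeR adjusted p = 0.596). An increase as large as that of COL1A1 lies outside that interval. COL11A1 (chromosome 1, 102876467 to 103108872) had 2 counts in control replicate 1 and 0 in the other libraries, and was not tested.

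**Figure D2:**
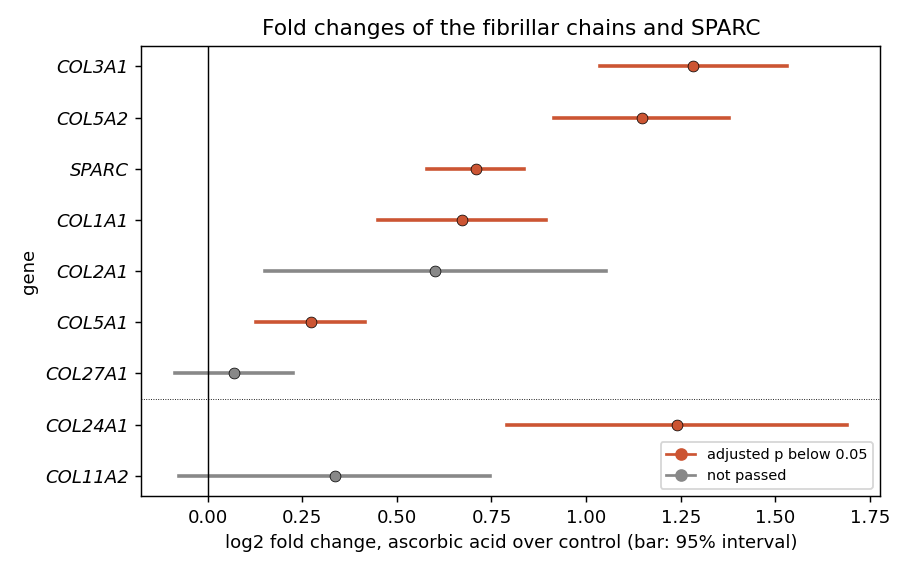
Points are log2 fold changes of ascorbic acid over control from edgeR with their unadjusted 95% intervals as bars, for the 7 tested members and, below the dotted line, 2 further fibrillar chains. COL3A1 (1.28), COL5A2 (1.15) and COL24A1 (1.24) lie farthest to the right, and COL27A1 (0.07) lies at 0.

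Levels of different genes were compared per kilobase of summed exon length (FPKM). In the controls SPARC was highest at 6.57 ± 0.166 FPKM (SD, n = 3). COL5A1 followed at 2.31 ± 0.0502 and COL27A1 at 1.82 ± 0.153. COL1A1 (0.657 ± 0.00348), COL5A2 (0.621 ± 0.0327) and COL3A1 (0.531 ± 0.0126) formed a closer group, in which COL1A1 overlapped COL5A2 in their values, and COL2A1 was lowest of the tested members at 0.192 ± 0.0138. After ascorbic acid COL5A2 (1.38 ± 0.0642 FPKM, SD, n = 2) and COL3A1 (1.29 ± 0.0170) stood above COL1A1 (1.05 ± 0.118). SPARC then had 10.7 ± 0.703, COL5A1 2.78 ± 0.219, COL27A1 1.91 ± 0.135 and COL2A1 0.292 ± 0.0190 FPKM. The order depends on the length used. Per kilobase of the longest transcript, COL27A1 (3.28 FPKM) stood above COL5A1 (3.05 FPKM) in the controls, and COL1A1 after ascorbic acid (1.53 FPKM) stood between COL3A1 (1.59) and COL5A2 (1.45). Summed over the 8 chains and not scaled by length, collagen counts made up 65.2, 69.1 and 67.7 CPM in the controls. After ascorbic acid they made up 90.02 and 88.3 CPM, a ratio of 1.32. Longer transcripts weigh more in that sum. Within that sum the part of COL3A1 went from 5.37% ± 0.239 to 9.88% ± 0.00801 and that of COL5A2 from 6.89% ± 0.458 to 11.5% ± 0.697. COL27A1 went from 37.9% ± 2.16 to 30.02% ± 2.53.

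The position of COL3A1 and COL5A2 was examined because they had the largest changes of the members and lie tail to tail, 19.1 kb apart. Of the 12 genes of the table within 500 kb of them, 7 were tested. Besides the collagens, SLC40A1 rose. It encodes ferroportin, the iron exporter of the cell membrane, and its near end lies 586 kb beyond the COL3A1 start. Control counts were 128, 66 and 74 and treated counts 160 and 147. Its log2 fold change was 0.71 ± 0.18, at an adjusted p of 0.00730 from edgeR. That call ended without ascorbic acid replicate 2 (0.67, adjusted p = 0.0548) and against a fold of 1.2 (adjusted p = 0.0970). WDR75, a ribosome assembly factor that lies between COL5A2 and SLC40A1, had -0.05 ± 0.05 and did not pass. GULP1 (-0.01 ± 0.08), ASNSD1 (-0.07 ± 0.05) and ANKAR (-0.31 ± 0.22) did not pass either. Beside the other called members the tested neighbours were TMEM92 next to COL1A1 (0.68 ± 0.55), RXRA next to COL5A1 (0.02 ± 0.07) and FAT2 next to SPARC (0.02 ± 0.24), and none of these passed. Each lies on 1 side only. The symbol taken for the other side was not tested: H1-9P for COL1A1, COL5A1-AS1 inside COL5A1, and CLMAT3, which overlaps SPARC. Genes beyond these were not examined.

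**Figure D3:**
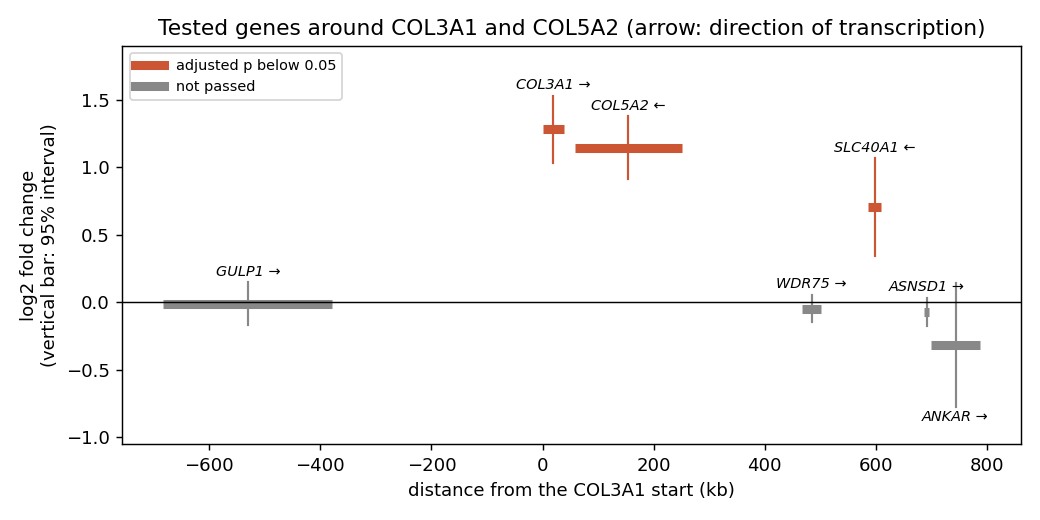
Horizontal bars are the bodies of the 7 tested genes around COL3A1 and COL5A2, placed by their distance in kb from the COL3A1 start and by their log2 fold change, with 95% intervals as vertical lines. COL3A1, COL5A2 and SLC40A1 stand above 0, while GULP1, WDR75, ASNSD1 and ANKAR have intervals that include it.

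The genes whose pattern over the 5 libraries was nearest to COL3A1 were sought among 10584 others with a mean of at least 5 CPM, by the distance between centred log2 CPM profiles. COL5A2 was the nearest of all (distance 0.18). S100A11, a calcium-binding protein (0.24), KRT8, a keratin of simple epithelia (0.28), INPP5D, an inositol phosphatase (0.31), and HLA-DPA1, a class II antigen-presenting chain (0.35), came next. For SPARC the nearest were APH1B, a subunit of gamma-secretase (0.050), SERPINB1, an inhibitor of neutrophil proteases (0.079), CASP8, an apoptotic protease (0.090), NEFM, a neurofilament (0.093), and COL1A1 (0.10). COL5A2 (4.63 CPM in controls) and KRT8 (4.41 CPM in controls) passed the filter on the mean of all 5 libraries only through their treated values. With 2 groups the distance mostly follows the size of the change, and the likeness was not tested.

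The remaining fibrillar chains and the genes that make, export and assemble collagen were taken from 12 lists with 117 genes, the members left out. Tests were possible for 90, and 21 of them rose while 3 fell and 66 missed the threshold. Of all tested genes 8.53% rose and 5.76% fell, and of those with 1 to 5 CPM in controls 14.8% rose. These shares also stand beside the counts per list that follow. The median log2 fold change of the 90 was 0.11. Against a fold of 1.2, 7 of them were called higher, as were 275 of all 15271 tested genes. Of the other fibrillar chains, COL24A1 rose. Its control mean was 1.10 ± 0.276 CPM (SD, n = 3) and its treated mean 2.67 ± 0.222 CPM (SD, n = 2), and edgeR gave 1.24 ± 0.22 (adjusted p = 2.42e-04). COL11A2 had 0.34 ± 0.20 and did not pass, and COL5A3 had 0 counts in all libraries. Of 5 tested collagens that decorate fibrils 2 rose, COL19A1 by 0.82 ± 0.22 and COL14A1 by 0.23 ± 0.08. The COL19A1 call ended without ascorbic acid replicate 1 (0.74), with DESeq2 (0.81) and with the trend over expression removed (0.63). The COL14A1 call ended without control replicate 1 (0.20), control replicate 3 (0.19), ascorbic acid replicate 1 (0.18) or ascorbic acid replicate 2 (0.27), and with DESeq2 (0.22), the trend removed (0.22) or the replicate number as a block (0.19). Neither held against a fold of 1.2.

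Of 14 enzymes that add hydroxyl groups or sugars to procollagen, all tested, 4 rose and 0 fell. The other 10 missed the threshold, and the median was 0.14. PLOD3, a lysyl hydroxylase that also adds sugars, rose by 0.33 ± 0.06, P3H2, a prolyl 3-hydroxylase, by 0.87 ± 0.19, and CRTAP, the partner of prolyl 3-hydroxylase 1, by 0.17 ± 0.05. COLGALT2, a galactosyltransferase, rose by 0.31 ± 0.09. The edgeR adjusted p of these ran from 4.79e-04 for PLOD3 to 0.0196 for COLGALT2. The prolyl 4-hydroxylase subunits P4HA1 (-0.14 ± 0.06), P4HA2 (0.15 ± 0.09) and P4HB (-0.09 ± 0.05) did not pass. The P3H2 call ended without ascorbic acid replicate 1 (0.68), the CRTAP call without control replicate 2 (0.15), control replicate 3 (0.15) or ascorbic acid replicate 1 (0.13), and the COLGALT2 call without control replicate 1 (0.30) or ascorbic acid replicate 2 (0.25), with DESeq2 (0.30) or with the trend removed (0.26). PLOD3, CRTAP and COLGALT2 were not called against a fold of 1.2.

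Among 8 chaperones of procollagen 1 rose and 2 fell. SERPINH1, the collagen-specific chaperone HSP47, rose by 0.23 ± 0.05 (edgeR adjusted p = 0.00301). Its mean was 86.9 ± 0.455 CPM in controls (SD, n = 3) and 102 ± 6.41 CPM after treatment (SD, n = 2). The general chaperones HSPA5 (-0.18 ± 0.05) and HSP90B1 (-0.14 ± 0.04) of the endoplasmic reticulum fell. Of 13 export genes 0 rose and 1 fell, the coat protein gene SEC31A (-0.13 ± 0.04). All 8 tested genes for removal of the propeptides did not pass, among them the convertase FURIN (0.08 ± 0.06) and the enhancer PCOLCE2 (0.07 ± 0.06). The SERPINH1 call ended without ascorbic acid replicate 1 (0.16), the HSPA5 call without control replicate 1 (-0.14) or ascorbic acid replicate 2 (-0.14) and with the trend removed (-0.11), and none of these 4 held against a fold of 1.2. The HSP90B1 call ended without control replicates 1, 2 or 3 or ascorbic acid replicate 1 (-0.15 to -0.09). It also ended with upper-quartile factors (-0.13), library totals (-0.099), the 5 CPM filter (-0.12), the replicate block (-0.14), that block with GC and length trends removed (-0.086) and the trend removed (-0.066). The SEC31A call ended whichever library was left out (-0.15 to -0.12) and in these same 6 settings (-0.12 to -0.073), as well as with no filter (-0.13) and no robust prior (-0.13). The count of pathway genes that fell, 3, was 0 without control replicate 1 and 1 without control replicate 2, control replicate 3 or ascorbic acid replicate 2.

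Lysyl oxidases, which cross-link collagen outside the cell, were among the genes that rose: 4 of 5 did, with a median of 0.58 over the 5. LOXL1 went from 116, 102 and 87 counts to 211 and 186, a log2 fold change of 0.86 ± 0.16. Of its exon length 9.21% is shared with the antisense transcript LOXL1-AS1. LOXL3 shares 19.3% of its exon length with HTRA2 and DOK1 on the opposite strand. LOXL3 rose by 0.58 ± 0.11, LOXL2 by 0.50 ± 0.11 and LOXL4 by 0.90 ± 0.27 (edgeR adjusted p from 4.68e-04 for LOXL1 to 0.0254 for LOXL4), and LOX had 0.10 ± 0.08 and did not pass. Only LOXL1 was called in each alternative that tested it. The LOXL2 call ended without ascorbic acid replicate 1 (0.38), the LOXL4 call without control replicate 3 (0.76) or ascorbic acid replicate 2 (0.56) and with DESeq2 (0.91), the trend removed (0.69) or the replicate block (0.73), and LOXL2, LOXL3 and LOXL4 were not called against a fold of 1.2.

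Of 17 proteins that bind fibrils 6 were tested and 2 rose, fibronectin (FN1, 0.38 ± 0.05) and fibulin 1 (FBLN1, 0.47 ± 0.06). In the SPARC family 2 of 5 rose, FSTL1 (0.30 ± 0.05) and SPOCK3 (0.72 ± 0.18), which ended without ascorbic acid replicate 2 (0.64). Among receptors of collagen and SPARC 4 of 9 rose. They were the endocytic receptor MRC2 (0.66 ± 0.10), the kinases DDR1 (0.53 ± 0.09) and DDR2 (0.26 ± 0.05), which sense the collagen helix, and STAB1, a scavenger receptor that takes up SPARC, whose counts were 3, 4 and 4 in control libraries against 14 and 15 after treatment (1.85 ± 0.63). The STAB1 call ended without control replicate 1 (1.51), control replicate 2 (1.997), ascorbic acid replicate 1 (1.98) or ascorbic acid replicate 2 (1.70). It also ended with no filter (1.84), the trend removed (1.12), the replicate block (2.03) and that block with GC and length trends removed (1.92). Of 3 tested proteases that cut fibrillar collagen or gelatin, MMP2 rose by 1.09 ± 0.14 (edgeR adjusted p = 3.53e-06). None of 13 tested transcription factors of collagen genes passed, and the 2 most abundant, SP1 and NFYA, had -0.06 ± 0.05 and -0.07 ± 0.05. FN1, FSTL1, SPOCK3, DDR2 and STAB1 were not called against a fold of 1.2. Of the exon length of MRC2, 12.6% is shared with transcripts on the opposite strand.

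**Figure D4:**
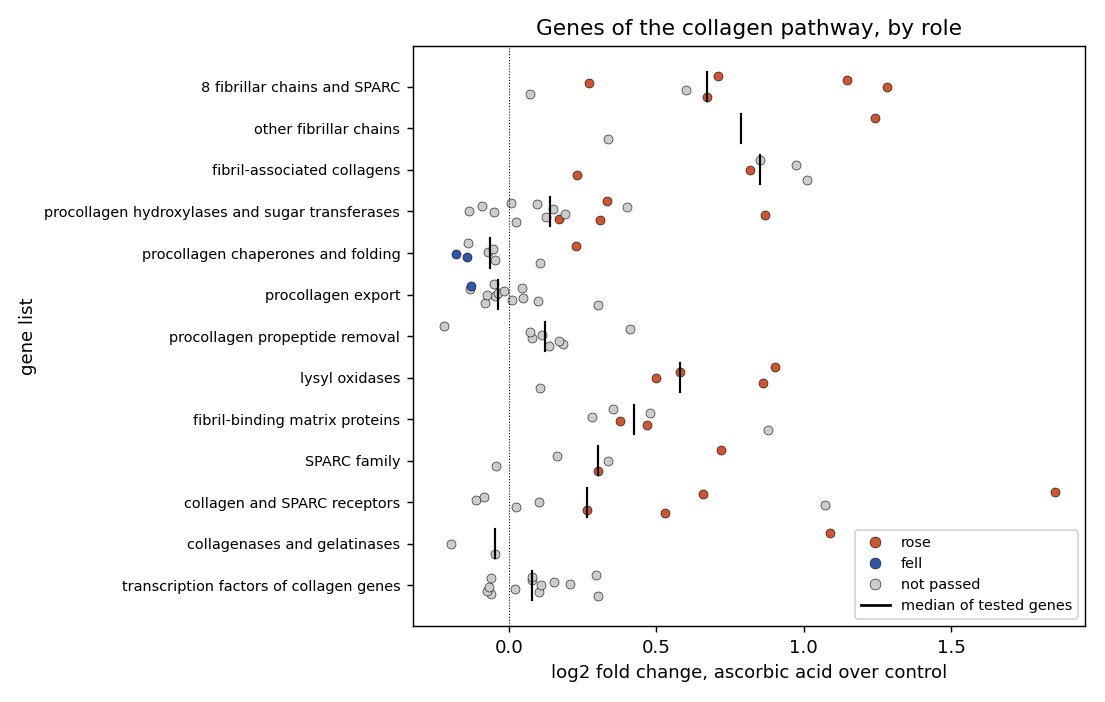
Each point is the log2 fold change of a tested gene of a list, in red where it rose, blue where it fell and grey where it did not pass; black bars are medians over the tested genes. The fibrillar chains with SPARC (median 0.67), the fibril-associated collagens (0.85) and the lysyl oxidases (0.58) lie to the right of the export (-0.04) and chaperone (-0.06) genes. The lists differ in level. Over all tested genes the median was 0.14 at 1 to 5 CPM in controls and 0.004 at 10 to 50 CPM.

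Markers of other cell types that make fibrillar collagen were summed by list. Of 8 fibroblast markers 2 were tested and 0 passed, PDGFRA with 0.58 ± 0.30 and PDGFRB with 1.13 ± 0.52. Their sum was 1 to 1.31 CPM in the controls and 1.53 to 2.29 CPM after ascorbic acid, and FAP was at 0 in every library. Chondrocyte markers summed to 2.47 to 2.81 CPM in the controls and 4.04 to 4.30 CPM in the treated libraries, with MATN3, a cartilage matrix protein, called higher (1.29 ± 0.24) among 5 tested of 8, and CNMD at 0. Osteoblast markers summed to 1.85 to 2.26 against 2.74 to 2.78 CPM, with ALPL called (0.98 ± 0.33) among 2 tested of 7, and SP7 at 0. The ALPL call ended without control replicate 1 (0.84), control replicate 3 (0.9953), ascorbic acid replicate 1 (1.01) or ascorbic acid replicate 2 (0.95). It also ended with DESeq2 (0.97), the trend removed (0.68), the replicate block (0.99), that block with GC and length trends removed (0.93) and against a fold of 1.2. Smooth muscle markers summed to 8.79 to 9.57 CPM against 13.0 to 15.5 CPM, with ACTA2, the actin of smooth muscle, called (0.68 ± 0.11) among 4 tested of 5. ACTA2 had 7.60 ± 0.432 CPM in the controls (SD, n = 3) and 12.2 ± 1.83 CPM after treatment (SD, n = 2). The summed level of each of these 4 lists was higher in both treated libraries than in any control, as in 6 of the 7 tested members and in the HEK293 list below. MATN3 (mean 0.913 CPM in controls, 2.23 CPM after treatment) and ACTA2 made up most of the chondrocyte and smooth muscle differences. The other tested chondrocyte markers, ACAN (-0.15), PRG4 (-0.06), SNORC (0.11) and MATN1 (0.35), did not pass. Nor did RUNX2 (0.11), TAGLN (0.39), MYH11 (0.39) and DES (0.41). The part of these sums in the result was not tested. The HEK293 markers summed to 359 to 362 CPM in the controls and 399 to 417 CPM after ascorbic acid, with UCHL1 (0.24 ± 0.04) and NEFM (0.75 ± 0.07) called among 8.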

How the data were processed

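The deposited table holds whole-number counts per gene symbol for 5 libraries. The tools named in the submitters' processing notes are STAR, featureCounts, Trimmomatic 0.39 and DESeq2, with GRCh38 as the build. How strand, annotation and multi-mapping reads were set is not given in the sources used here. Columns were assigned by name, "con" as control and "vc" as vitamin C. Genes were filtered with filterByExpr, scaled with TMM (factors 0.984 to 1.02) and tested with edgeR 4.0.16 in R 4.3.3 (glmQLFit, robust prior, glmQLFTest, two-sided) over all 5 libraries, without covariates. P-values were Benjamini-Hochberg adjusted over 15271 genes at a threshold of 0.05, and SE was derived from the F statistic. Replicates differed by more than the counting noise of the values as given (chi-square per degree of freedom 3.81 to 6.85). If fragments were counted more than once, part of that excess would come from it. Positions, lengths and sequences came from GENCODE 29 (26218 of 28278 symbols matched). On simulated counts for this comparison (15110 genes) the test recovered 58% of changes at a fold of 1.2, 92% at 1.5 and 100% at 2, with 8 false calls among 183. Only 50 genes were changed at each fold, while 2182 genes were called in the data. Recovery was not split by level. The rates therefore cannot be carried over to sparsely counted genes such as COL2A1, COL24A1, COL19A1, LOXL4, ALPL and STAB1. Members and lists were chosen with earlier results of these data known. Named genes were all members, up to 4 called genes per list by smallest p (or its 2 most abundant), genes near called members, the 5 nearest patterns to COL3A1 and SPARC, and markers that passed. P4HA1, P4HA2, P4HB, LOX, COL11A2, COL5A3, PDGFRA, PDGFRB, SALL2 and PAX2 were named after their values were seen. So were the other markers given that did not pass or were at 0. The 19 alternatives used DESeq2 1.42.0, limma 3.58.1 (voom, cyclic loess), mgcv 1.9.3 (GC and length trends), other scaling, filters, priors, halved counts, a fold of 1.2, a replicate block and each library left out.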

Additional observations from a re-analysis of the deposited data

How the results depend on the processing

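COL3A1, COL5A2, SPARC and COL1A1 were called higher in all 19 alternatives, with log2 fold changes of 1.17 to 1.33, 1.05 to 1.19, 0.64 to 0.77 and 0.55 to 0.77. The members called higher numbered 4 to 6 throughout. Without 1 library they numbered 4 to 5, the members called lower 0, the pathway genes called higher 14 to 20 and those called lower 0 to 3. With the replicate block, in which control replicate 3 has no partner and so adds nothing to the fold change, the members called higher numbered 5 and the pathway genes called higher 18. Whether the numbers pair the libraries was not settled. Deviations of same-numbered libraries from their group mean had correlations of 0.02 and 0.01. The deviations of the 2 treated libraries mirror each other, so these values are no separate checks. Values near 0 show no sign of pairing but cannot exclude it. The block ended the calls of COL14A1, HSP90B1, SEC31A, LOXL4, STAB1 and ALPL among the genes named. Of 37 called genes named beside the members, 16 were called in each alternative that tested them, 21 were not in 1 or more, and 0 changed sign. Against a fold of 1.2, 7 pathway genes were higher and 0 lower, and 275 genes overall were higher and 11 lower. The 3 lower pathway genes became 1 with library totals, upper-quartile factors or the 5 CPM filter, 0 with the expression trend removed and 5 with GC and length trends removed. Over all genes (1303 higher, 879 lower), DESeq2 called 806 higher. The lower genes numbered 389 with library totals, 542 with the 5 CPM filter, 519 with the expression trend removed, 1466 with GC and length trends removed and 1420 with the block added to that. Without 1 library 790 to 1279 genes were higher and 335 to 768 lower, the latter 335 without control replicate 1 and 535 without control replicate 2. The split therefore depends on the scaling: with library totals, 1712 rose and 389 fell.

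Sign changes were confined, among genes named, to values that passed in no alternative. COL27A1 had -0.0113 with GC and length trends removed, -0.0426 with the block added and -0.0094 to 0.141 without 1 library. GULP1 had 0.0325 (library totals), 0.0059 (upper-quartile factors), 0.0148 (5 CPM filter), 0.0127 (replicate block), 0.0349 (GC and length), 0.0860 (GC and length with block) and -0.0388 to 0.0124 without 1 library. WDR75 had 0.0019 with GC and length trends removed. RXRA had -0.0494 with GC and length trends removed, -0.0326 with the block added, and -0.0621 to 0.0818 without 1 library. FAT2 had -0.0675 with the block, -0.161 with the expression trend removed, -0.0299 with GC and length trends removed, -0.112 with the block added, and -0.0652 to 0.1286 without 1 library. The cause of these changes was not tested. Depth limits what can be said of a change in COL1A2 and COL11A1, at 0 to 2 counts.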
